A study of Mus musculus with 4 samples.

Results

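The genes described here are the ribosomal proteins and the translation factors: every probe set whose single gene symbol begins with Rpl or Rps and a digit, with Rplp, or with Eef or Eif and a digit, except the kinase gene Eif2ak2, together with Tpt1. They were picked by symbol and not by a measured value. The rule found 89 of the 6137 genes with a single symbol on the arrays. These were read by 88 of 6529 gene probe sets on the A chip and by 33 of 6540 on the B chip, a probe set being the group of probes that reads a transcript.

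The RNA came from CD8 T cells that carry the transgenic B6.2.16 T cell receptor, which is specific for HY, an antigen made by males. Donors and hosts alike were female and lacked RAG1, and the labels used here state no age. Naive cells, labelled as over 85% pure, were taken from lymph nodes. The memory group began as splenocytes kept with HY peptide for 4 days, which were moved into hosts and recovered 200 days later from spleen and lymph nodes by magnetic beads, at a stated purity above 80%. The groups thus differed in tissue, culture, transfer, time and sorting at once, and the labels used here do not state how many animals were pooled. Each group was read on 1 A and 1 B chip of an Affymetrix mouse set. All differences below compare 1 memory array with 1 naive array and have no error, no test and no p-value. On the A chip only the memory array is used, because the naive A values did not track it: Spearman's rho between the arrays was 0.10 across the 6529 A probe sets and 0.03 across the 88 members, against 0.85 across the 6540 B probe sets and 0.93 across the 33 members there. Probe sets are not independent replicates, and these values only describe the arrays.

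A ribosome consists of a small subunit, which reads the messenger RNA, and a large subunit, which joins amino acids, and each holds many Rps or Rpl proteins. The stalk proteins Rplp0, Rplp1 and Rplp2 recruit the elongation factors. Eif proteins bring the first tRNA and the messenger to the ribosome, and Eef proteins carry the chain forward. In resting T cells translation is held low and it climbs steeply on activation, mostly through the mTOR pathway, which acts on messengers that begin with a pyrimidine tract (the 5′ terminal oligopyrimidine, or TOP, motif).

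The TOP feature is shared by most ribosomal protein genes, so the longest run of pyrimidines that begins with C was searched on the sense strand of each RefSeq promoter window (GRCm38.p6, from 250 bases before to 50 bases after the annotated start). The table held 69 of the 89 genes. A run of at least 10 letters was found in 21 of 35 ribosomal protein genes (60.0%), in 13 of the other 34 member genes (38.2%) and in 35.6% of 17492 protein-coding genes. A run was counted anywhere in the window, also upstream of the start, so these shares do not count TOP motifs. The annotated start can also lie upstream of the start used in T cells, so a run is only a description of these letters. The sequences below are 30 bases long, 5′ to 3′ on the coding strand, with the run in capitals, and they show the genes with the largest differences on the B chip together with members that differed less.
Eef1a1: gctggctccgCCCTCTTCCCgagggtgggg
Rpl37a: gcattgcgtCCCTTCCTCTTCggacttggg
Rps12: caccgccggCCTTTTCCCCTgccgccgccg
Rps24: ttggtcggcagtgagcggtCCTCTTTTCCT
Rpl27a: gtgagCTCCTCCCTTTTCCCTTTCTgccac
Rpl28: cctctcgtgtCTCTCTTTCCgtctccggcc
Eef2: acgtcagcggtCTCTTCCgccgcagccgcc
Tpt1: cggccgcaagtCCCTTCCCgtcccagcatg
Rplp0: tgctgtctttaCTTTCCCgacttgctggag
Eif4a2: tgccaggtagCCCTTTCCTgtcacattaaa
The stretch of Eef1a1 is chr9:78481710-78481739 on the minus strand, that of Rpl37a chr1:72711275-72711304 on the plus strand, that of Rps12 chr10:23787181-23787210 on the minus strand and that of Rps24 chr14:24490698-24490727 on the plus strand. Rpl27a (chr7:109519186-109519215), Rpl28 (chr7:4792953-4792982), Eef2 (chr10:81176635-81176664), Tpt1 (chr14:75845072-75845101), Rplp0 (chr5:115559335-115559364) and Eif4a2 (chr16:23107241-23107270) are all on the plus strand. In Eef1a1, Rpl27a and Rpl28 the run begins 5, 4 and 2 bases before the annotated start, and in Rps12, Eef2, Rpl37a and Rps24 at base 9, 16, 25 and 40 of the gene. In Tpt1, Rplp0 and Eif4a2 it lies 173, 121 and 217 bases upstream of the start. The length of the run had no simple order with the differences below: Rpl27a holds the run of 20 letters, and Tpt1 and Rplp0 hold runs of 8 and 7.

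Other promoter motifs were counted in the same windows on both strands. The ETS site CCGGAAG was present in 22 of the 69 member promoters (31.9%) against 11.9% of all protein-coding genes. The GC box GGGCGG was present in 45 of 69 (65.2%) against 46.3%, with 27 of 34 among the factors and 18 of 35 among the ribosomal proteins. The TATA box TATAAA was found in 7 (10.1%) against 13.3%, and the YY1 site AAGATGGC in 4 (5.80%) against 3.22%. These windows are shown for the genes with the largest ratios on the B chip. In the 100 bases before the start of Eef1a1 and of Tpt1 the GC box lies on the opposite strand (in capitals), and in Eef1a1 its last letters are the first of the pyrimidine run. Rpl37a has none of the 4 motifs in its window.
Eef1a1: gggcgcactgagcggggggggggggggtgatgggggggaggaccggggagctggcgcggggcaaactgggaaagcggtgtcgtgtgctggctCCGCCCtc
Tpt1: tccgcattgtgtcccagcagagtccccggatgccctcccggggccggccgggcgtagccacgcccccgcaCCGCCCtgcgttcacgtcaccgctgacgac
Rpl37a: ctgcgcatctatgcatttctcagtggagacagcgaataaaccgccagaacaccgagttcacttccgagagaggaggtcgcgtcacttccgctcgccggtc
These are chr9:78481725-78481824 (minus strand), chr14:75845156-75845255 and chr1:72711160-72711259 (both plus strand).

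On the B chip values were scaled to a common trimmed mean, and intensities under 423 were taken as noise and set to that floor. A probe set counts as measured when at least 1 of its arrays lies above the floor, and as lower or higher when its brighter array reaches 2 times the floor and the ratio reaches 2-fold. Of the 33 member probe sets 22 were measured, for 17 genes. Of these, 13 (10 genes) were at least 2-fold lower in the memory array, 0 were higher and 9 were called neither. Among the 9 is Rpl32-ps, whose memory value was under the floor. Over all 1056 measured gene probe sets 10.7% were lower and 6.34% higher. All 22 measured members had a log2 ratio of memory to naive below zero, with a median of -1.16, against -0.12 over all measured probe sets. The share of all measured probe sets below zero was not counted, so the 22 of 22 has no background beside it. The members lower in memory included proteins of both subunits, the stalk protein Rplp0, the elongation factor Eef1a1, the helicase Eif4a1 and Tpt1. All 13 called lower were bright, reading at least 1900 in memory and 3804 in naive. With intensity-dependent (lowess) scaling, which sets the average ratio at each brightness to zero, 0 of the 22 were 2-fold lower and 0 higher. The median became -0.15. Because the members were part of that fit, a median near zero is partly built in. With the curve fitted without them the counts were again 0 and 0, and the median was -0.17. With members in the fit, 4.83% of all measured probe sets were lower and 7.58% higher.

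The range of values differed between the arrays. No gene probe set read above 5125 on the memory array, against 15786 on the naive array. The 6 member probe sets above 10249 in naive were those of Eef1a1, Tpt1, Rpl37a, Rps12 and Rps24. Any value within the range seen on the memory array would have called them lower. Their calls and the sizes of their folds therefore cannot be read apart from that range. Whether 5125 is a limit of the array or the level of the RNA was not tested.

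Markers of other cell types differed between the same arrays, and their part in these ratios was not tested. Of 12 measured macrophage and monocyte probe sets 7 were higher in memory, and the summed intensity of that list was 30923 against 17156. The erythroid list summed to 7647 against 18799 through the globins Hba-a1 (2007 against 11296) and Hbb-b2 (2290 against 6105), while the haem synthesis enzyme Alas2 was higher in memory (1944 against 183). The dendritic list summed to 14053 against 19511 with Cd74 and to 10985 against 9981 without it. Its class II chains did not move alike. H2-Ab1 was higher in memory (2500 against 1009). H2-Eb1 read lower on both probe sets (514 against 795 and 2340 against 3652), and H2-Aa read somewhat higher (2908 against 2114 and 2709 against 2434), all within 2-fold. The granulocyte list summed to 8086 against 9023 and the NK list to 381 against 1064. These sums include values under the floor. Both NK probe sets, Klra4 (102 against 548) and Klra8 (279 against 516), were under it in memory, and neither was called. For B cells the measured count was 0, with sums of 20.8 against 69.5. Of the CD8 T cell list 4 of 6 probe sets were measured, with sums of 4965 against 8529. Its defining chain Cd8a read 498 in memory and 352 in naive, the latter under the floor, while the receptor chain Cd3d read 959 and 1115 and the surface protein Thy1 read 2848 and 6184. In such bulk preparations fewer cells of a type and less RNA per cell cannot be told apart.

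**Figure D1:**
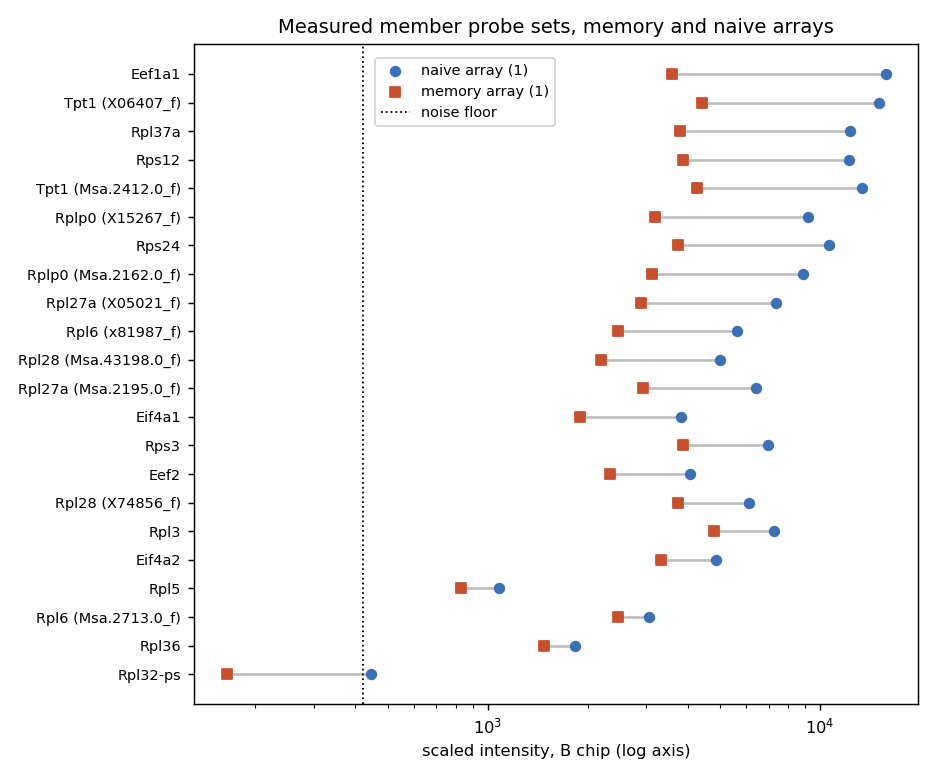
Scaled intensity (log axis) of the 22 measured member probe sets on the B chip, 1 memory array (squares) and 1 naive array (circles); the dotted line is the noise floor of 423. The memory square lies left of the naive circle in every row, and the gap is widest for Eef1a1 (3593 against 15739) and narrow for Rpl36 (1481 against 1834).

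Among the large subunit proteins, Rpl37a, a small zinc-binding protein, read 3783 in memory and 12311 in naive, a 3.25-fold difference. Rpl27a was read by a pair of probe sets designed on the same sequence record, which gave 2884 against 7386 (2.56-fold) and 2940 against 6431 (2.19-fold). Both probe sets of Rpl27a thus passed 2-fold. The pair for Rpl6 did not give the same result, with 2473 against 5627 (2.28-fold) on one probe set and 2467 against 3066 (1.24-fold) on the other. Rpl28 also split, with 2190 against 4983 (2.28-fold) and 3741 against 6116 (1.63-fold). For these genes the call depends on which probe set is read.

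Rpl3, a protein close to the peptidyl transferase centre, read 4798 against 7249 (1.51-fold), and Rpl5, which binds the 5S rRNA, read 831 against 1080 (log2 ratio -0.38). Rpl36 read 1481 against 1834 (1.24-fold). None of these 3 passed 2-fold. The large subunit group as a whole had 5 of 10 measured probe sets lower, with a median log2 ratio of -0.92. The pseudogene Rpl32-ps read 164 against 445, so its memory value is under the floor and no size can be given beyond at least 1.05-fold. Rpl32 and Rpl7 themselves were under the floor on both arrays, with 23.8 and -26.2 for Rpl32 and 41.7 and 158 for Rpl7.

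The 3 small subunit proteins were all bright. Rps12 read 3877 against 12197 (3.15-fold), Rps24 read 3730 against 10668 (2.86-fold) and Rps3, which lines the mRNA entry channel, read 3856 against 6971 (1.81-fold). Their memory values were nearly the same, and the order of their ratios followed the naive values. The stalk base Rplp0 gave nearly the same answer on its pair of probe sets, 3183 against 9229 (2.90-fold) and 3114 against 8889 (2.85-fold).

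Of the elongation factors, Eef1a1, which delivers aminoacyl-tRNA to the ribosome, had the largest ratio of any member, 3593 against 15739 (4.38-fold). Eef2, which moves the ribosome along the messenger, read 2338 against 4048 (1.73-fold), within 2-fold. Of the initiation factors, the RNA helicase Eif4a1 read 1900 against 3804, which sits at the 2-fold threshold itself, and the call was lost without scaling (-0.98) and with scaling by the median ratio (-0.88). Its paralogue Eif4a2 read 3314 against 4851 (1.46-fold). Tpt1, the translationally controlled tumour protein, whose messenger carries a TOP motif, read 4420 against 15065 (3.41-fold) and 4267 against 13407 (3.14-fold).

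The remaining 9 initiation probe sets were under the floor on both arrays, and no ratio can be formed for them. They read Eif1a, Eif1b, Eif2b5 (on a pair of probe sets), Eif3b, Eif3d, Eif4h, Eif5 and Eif5a. The brightest of them in memory was an Eif2b5 probe set at 328 against 293, and the factor Eif5a gave -194 on both arrays. Initiation on the B chip therefore rests on the Eif4a helicases alone.

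The spread between probe sets offers the only internal measure of repeatability. Among 29 pairs of measured probe sets made from the same sequence record, the log2 ratios differed by a median of 0.27, and 90% of pairs by less than 0.67. The 5 member pairs differed by 0.02 (Rplp0), 0.12 (Tpt1), 0.23 (Rpl27a), 0.48 (Rpl28) and 0.87 (Rpl6), the last being the widest of all 29 pairs. These pairs share the RNA and the array, so they do not measure the spread between animals or arrays. The values of 3 of 5 genes with a pair had the same call on both probe sets.

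Brightness went with the ratio, as the plot of ratio against brightness shows. In the band with a geometric mean intensity from 4096 to 16384, 10 of 13 member probe sets (76.9%) were lower, and so were 31 of 43 other probe sets (72.1%). The medians were -1.52 for members and -1.43 for the others, whose quartiles ran from -1.81 to -0.96. In the band from 2048 to 4096, 3 of 6 members and 19 of 98 others (19.4%) were lower, with medians of -0.90 and -0.34. Of the 3 members below 2048, Rpl36 and Rpl5 were within 2-fold, and Rpl32-ps, under the floor in memory, was not called. In the brightest band the members thus sat inside the range of other transcripts of like brightness. In the next band their median was below that of the others, on 6 probe sets and with no test. Of the 43 others in the brightest band 26 had no gene symbol listed, so which genes they read is unknown here. The 16 with a single symbol had 8 lower and a median log2 ratio of -1.01, nearer zero than the -1.52 of the members.

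**Figure D2:**
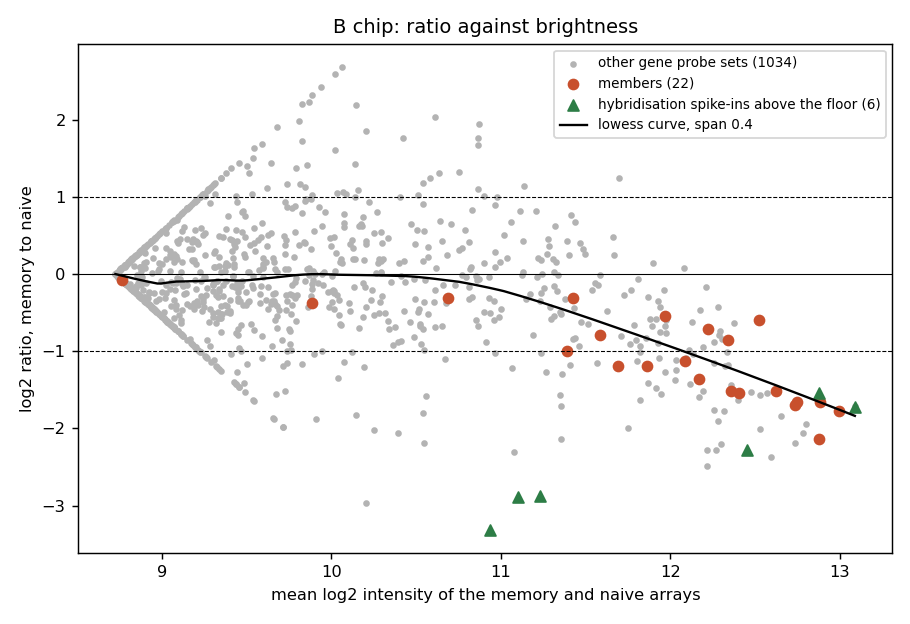
Log2 ratio of memory to naive against the mean log2 intensity for 1034 other gene probe sets (grey), the 22 members (orange circles) and 6 hybridisation spike-ins (green triangles) on the B chip; dashed lines mark 2-fold and the black line the lowess curve with a span of 0.4. From a mean of about 11 upwards the curve bends down, members follow it, and the spike-ins lie from -1.55 to -3.31.

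The spike-in control probe sets of the B chip moved in the same direction. The bacterial and phage transcripts BioB, BioC, BioDn and CreX are added to the hybridisation mix in the array maker's standard protocol; the labels used here do not state the amounts. All 9 of their probe sets were lower on the memory array. CreX, the brightest, read 4399 against 12859 and 4801 against 15917 on its probe sets, differences of 2.92-fold and 3.32-fold, near those of Rps12 and Tpt1. BioC read 622 against 6183 and 810 against 5980, so the 6 spike-ins above the floor on both arrays had log2 ratios from -3.31 to -1.55 with a median of -2.58. Scaling to that median moves every ratio up by the same amount. It put 16 of 22 members and 45.7% of all 1056 measured probe sets at least 2-fold higher, with 0 of either lower, and a call also needs the brighter array at 2 times the floor, which most members reach. The median was 1.42 for members and 2.45 for all measured probe sets, so the members remained below the typical probe set. Whether the spike-ins or the bulk of genes give the better scale was not tested.

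The mouse control transcripts did not all follow. Beta-actin read 2568 against 15040, 3435 against 12831 and 4636 against 15026 on its 3′, 5′ and middle probe sets, while Gapdh read 2988 against 2712, 1701 against 2178 and 2190 against 3099. The beta-actin differences were 5.86, 3.73 and 3.24-fold, the first above that of any member, and Gapdh stayed within 1.42-fold. The 18S ribosomal RNA, a part of the ribosome itself, went the other way on its 3′ probe set, at 838 against 125, the naive value being under the floor. Its 5′ and middle probe sets were under the floor on both arrays. The ratio of the 3′ to the 5′ value was 0.75 (memory) and 1.17 (naive) for beta-actin and 1.76 and 1.25 for Gapdh, so the 2 transcripts did not rank the arrays alike in this measure of RNA quality, whose part in the member ratios was not tested.

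A list of other abundant transcripts, fixed together with the other gene lists, gave 5 of 27 measured probe sets lower and 0 higher, with a median of -0.19. The lower ones with the largest ratios were the class I chain H2-D1 (2572 against 9639), the class II invariant chain Cd74 (3068 against 9507), the ferritin chain Ftl1 (3573 against 10379) and the prolyl isomerase Ppia (2579 against 6229). Other bright members of that list lay within 2-fold, such as the chromatin-associated prothymosin Ptma (4472 against 5016). With intensity-dependent scaling 0 of the 27 were lower, as for the ribosomal proteins.

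**Figure D3:**
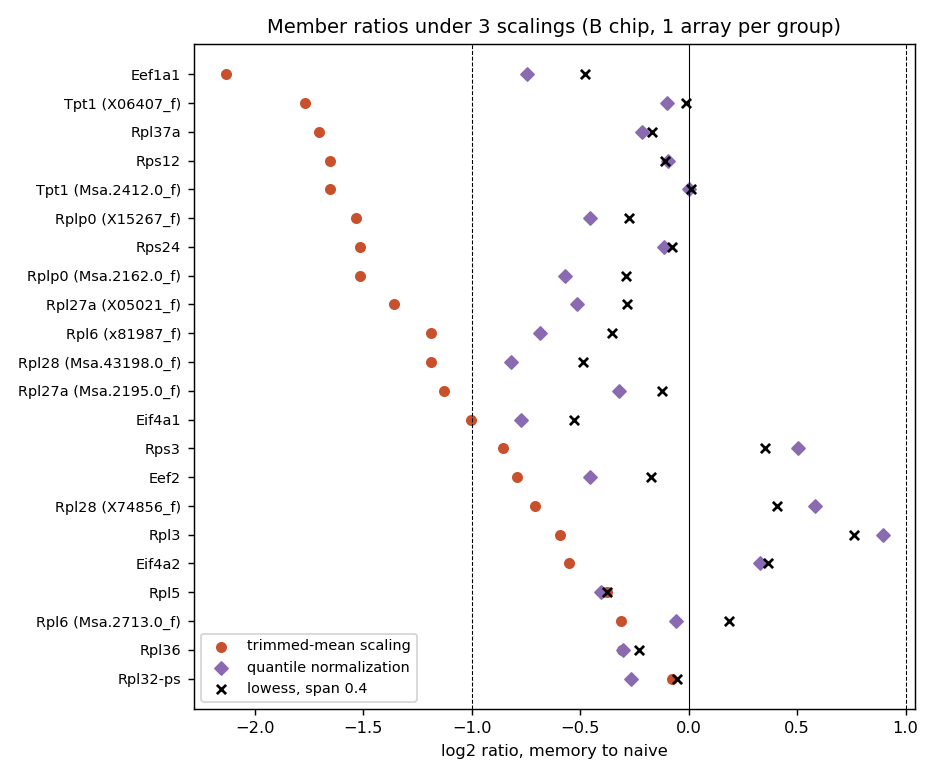
Log2 ratio of memory to naive for each measured member probe set under trimmed-mean scaling (circles), quantile normalization (diamonds) and lowess scaling with a span of 0.4 (crosses); dashed lines mark 2-fold. The circles reach -2.13 (Eef1a1), whereas all crosses lie between -0.53 and 0.76 and all diamonds between -0.82 and 0.89.

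Intensity-dependent scaling reordered the members. Under it 16 of 22 probe sets were below zero and 6 above, where the median over all measured probe sets was also slightly below zero (-0.033). Rpl3 had the highest ratio, 0.76, followed by one Rpl28 probe set at 0.41, Eif4a2 at 0.36 and Rps3 at 0.35. Eif4a1 had the lowest, -0.53, followed by the other Rpl28 probe set at -0.49 and Eef1a1 at -0.48. Rps12, Rps24 and both Tpt1 probe sets, which were about 3-fold lower before, lay between -0.11 and 0.01. Quantile normalization gave the same highest member, Rpl3 at 0.89, and 0 of 22 lower and 0 higher, where 5.82% and 7.97% of 1255 measured probe sets were.

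The place of a probe set among all 6540 in its own array, which no order-keeping rescaling of that array changes, moved in the same way. Rpl3 went from place 36 in naive to place 3 in memory, Rps3 from 37 to 14, one Rpl28 probe set from 56 to 19 and Eif4a2 from 75 to 46. Eef1a1 went from 2 to 27, the brighter Rplp0 probe set from 24 to 54, and Eif4a1 from 97 to 184. Tpt1 hardly moved, from 3 to 6 on one probe set and at place 8 on both arrays on the other. Of the 22 measured members 4 stood nearer the top in memory, 17 farther from it and 1 at the same place. The same count was not made for other probe sets of like place, and a probe set near the top has little room to rise. The 17 against 4 is therefore not read as particular to the members. Of the 22 members 18 were among the 100 brightest in naive and 14 in memory.

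All 13 probe sets called lower were of the sequence-family class (f), whose probes match several related genes, and ribosomal proteins have many near-identical processed pseudogenes. Their values are therefore uncertain as readings of 1 gene. Of 19 measured f members 13 were lower, against 15.7% of 351 other measured f probe sets, 5.90% of 525 in the s class and 7.76% of 116 without a class letter. These shares are not matched for brightness. In the band from 4096 to 16384, 29 of the 43 other probe sets were of class f, and 23 of those 29 were lower. Of the 3 measured members outside class f, Rpl3 and Eif4a2 were within 2-fold. Rpl32-ps was not called, and its memory value under the floor gives only a lower bound.

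On the memory array of the A chip, read as deposited with a noise floor of 184, 54 of 88 member probe sets (61.4%) lay above the floor, for 47 of 73 genes. Over all gene probe sets 26.7% did. The median member value was 253 against 64 for all. These are levels on 1 array, and because probe sets differ in how strongly they bind, values of different genes are not ranked against each other.

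**Figure D4:**
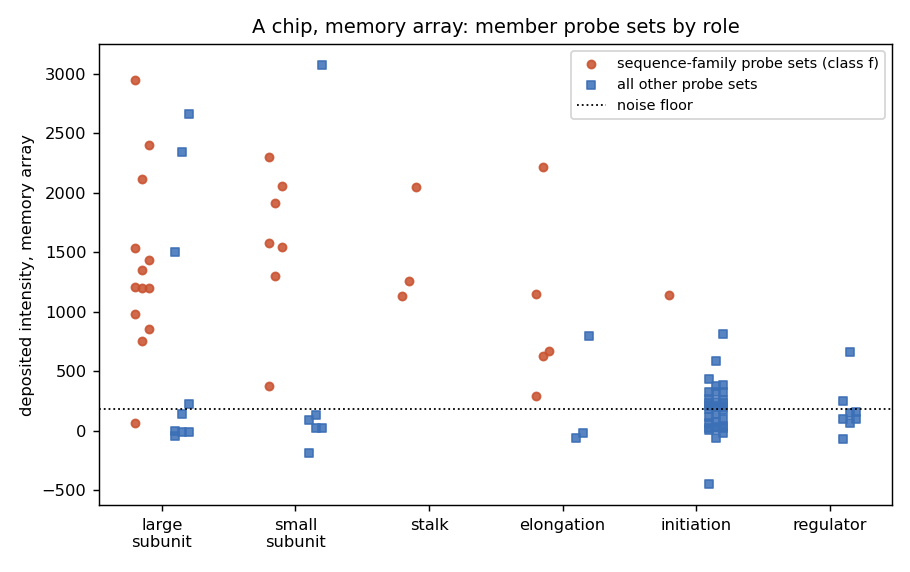
Deposited intensity of the 88 member probe sets on the memory array of the A chip by role, with sequence-family probe sets as circles and all others as squares; the dotted line is the noise floor of 184. Of the circles 28 of 29 lie above the floor, and the initiation factors and regulators are nearly all squares near it.

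Of 22 large subunit probe sets 16 were above the floor, with values up to 2945 (Rpl23). Rpl39 read 2664, Rpl12 read 2398, Rpl41 read 2341 and Rpl19 read 2118. The others at 4 or more times the floor were Rpl8 (1539), Rpl23a (1503), Rpl22 (1439), Rpl10a (1352), Rpl36 (1208), Rpl7a (1203), Rpl7 (1196), Rpl29 (982), Rpl22l1 (855) and Rpl32l (756). For 16 of 21 large subunit genes on this chip a probe set was thus above the floor in the memory preparation. Most of the bright ones were of class f, so they are uncertain as readings of 1 gene. Outside that class Rpl39, Rpl41 and Rpl23a were bright. Rpl27 (1), Rpl34 (-10), Rpl13a (144), Rpl39l (-11) and a second Rpl10a probe set (-41) were under the floor.

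Of 13 small subunit probe sets 8 were above the floor. Rps29 read 3075. Rps18 read 2301, Rps4x read 2055, Rps28 read 1912, Rps19 read 1582, Rps15a read 1542 and Rps15 read 1299. The stalk protein Rplp2 read 2053 and 1135 on its probe sets, and Rplp0 read 1256, so all 3 stalk probe sets were well above the floor.

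The elongation factors included Eef1a1 at 2219, 1149 and 626, and the subunits of its exchange factor, Eef1d (799), Eef1b2 (669) and Eef1g (290). The tissue-restricted paralogue Eef1a2, known from muscle and neurons, read -63, under the floor. Of 34 initiation probe sets 19 were above the floor, but only Eif4a1 (1143) and Eif3b (815) reached 4 times it. The cap-binding protein Eif4e read 10, and the subunit-joining inhibitor Eif6 read -451, so neither was detectable here. Of the regulators of translation that the symbol rule takes in, the cap-binding repressor Eif4ebp1 read 660, while the kinases Eef2k (68), Rps6ka3 (103) and Rps6kc1 (96), none of them a ribosomal protein, and the Eif4e transporter Eif4enif1 (-67) were under the floor.

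The class of probe set went with the level on this array too. Of 23 f-class ribosomal probe sets 22 were above the floor, with a median of 1352, against 5 of the 15 others, whose median was 92. The 5 were Rps29, Rpl39, Rpl41 and Rpl23a, all of the s class, and Rpl10 at 225. Genes with more than 1 probe set show the same gap directly: Rpl10a read 1352 on an f probe set and -41 on one without a class letter. Of 13 such genes 6 were above the floor on all their probe sets, 4 on none and 3 split. Among probe sets of other genes 55.3% of the f class and 14.5% of those without a letter were above the floor.

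A set of 11 genes had member probe sets on both chips, and their memory arrays can be set side by side. Eef1a1, Rplp0, Rpl36 and Eif4a1 were above the floor on both, with 1208 on A and 1481 on B for Rpl36. Rps3 read 133 on A and 3856 on B, and Eef2 read -16 on A and 2338 on B, while Rpl7 (1196 against 41.7), Eif3b (815 against -205) and Eif1b (382 against 266) were above the floor on A alone. Eif1a and Eif5a were under it on both chips. Of the 11 genes, 5 were therefore above the floor of 1 chip and not of the other, in the same cell population. The floors differ, 184 on A and 423 on B, and both Eif1b values lie between them.

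Other genes of the pathway were few on the B chip and mostly within 2-fold. Ribosome biogenesis genes had 3 of 6 probe sets measured and 0 past 2-fold, with a median log2 ratio of -0.41: nucleolin (Ncl) read 1012 against 1463, the rDNA transcription factor Ubtf 628 against 832 and the methyltransferase fibrillarin (Fbl) 671 against 740. Ribosome-linked and termination factors had 5 of 8 measured and 0 past 2-fold, among them the poly(A)-binding protein Pabpc1, at 3452 against 4387 and 3092 against 3723. The log2 ratios of Pabpc1 were -0.35 and -0.27.

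Mitochondrial ribosomal proteins had 2 of 7 measured, Mrpl33 (958 against 1110) and Mrps11 (263 against 460, the memory value under the floor), and aminoacyl-tRNA synthetases had 0 of 4. Inputs from mTOR and MYC had 3 of 11 measured and 0 past 2-fold, with the mTOR inhibitor Ddit4 at 1507 against 903 (log2 ratio 0.74). The eIF2 alpha kinase and phosphatase list had 1 of 2 measured. That one, the phosphatase subunit Ppp1r15a, which restores initiation by removing the phosphate from eIF2 alpha, was lower in memory, 873 against 2603, and kept a log2 ratio of -1.53 with intensity-dependent scaling. It was the sole member of these 6 pathway lists to pass 2-fold. On the memory A array 12 of 41 biogenesis probe sets, 4 of 17 synthetase, 6 of 32 mitochondrial ribosomal and 10 of 23 ribosome-linked probe sets were above the floor.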

How the data were processed

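RNA of naive and memory CD8 T cells was read on 4 Affymetrix arrays. Trizol was used for total RNA and cRNA was hybridised, per the labels. What the authors deposited is an intensity for each probe set, in whole numbers of which some are negative. The labels used here name no scanner software or settings and no build. No detection calls were used. Depth does not apply; the number of arrays limits the precision.

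Symbols came from the platform annotation and were checked by Entrez number against RefSeq (GRCm38.p6), which changed 0. Probe sets with several symbols, 25 on A and 1 on B with a member among them, were left out. On B, 55 control probe sets were set aside, both arrays were scaled to the mean of their 2% trimmed means (factors 0.993 and 1.01), the floor was set so that 95% of negative values on the noisier array were smaller in size, and values under it were set to it before log2. The A floor is that of the memory array alone. Lowess (statsmodels 0.14.6, span 0.4, 3 iterations) was fitted on measured probe sets. Promoter sequences are from RefSeq, 1 window per gene, matched by Entrez number.

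Members, lists, thresholds and alternatives were chosen with earlier results of these data known. All measured B members are named, and A members at 4 or more times the floor or on both chips; other A members were chosen after their values were seen. Of other lists, those past 2-fold on B were to be named, at most 4 per direction; the rest are examples. The comparison was tested on simulated arrays with 200 planted 4-fold changes. Trimmed-mean scaling recovered 200 of them and lowess 164. With bright memory values compressed, the scalings recovered 139 and 148. Of 6340 unchanged probe sets they called 31 and 48 lower and 40 and 36 higher without compression, and 42 and 39 lower and 56 and 21 higher with it. Changes smaller than 4-fold, the size of all called members but Eef1a1, were not planted, so their recovery is unknown.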

Additional observations from a re-analysis of the deposited data

Results flagged for a closer look

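The naive A array, which no comparison uses because its values did not track the memory A array, is listed because it lies outside the data compared. On it 26 of 88 member probe sets (29.5%) were above that array's own noise floor of 296, against 18.4% of its 6529 gene probe sets. Whether these values belong to the genes they are listed for is unknown, so they are not read as signal of these genes. Rps29 was bright on both A arrays (4557 naive, 3075 memory), but Eif6 read 1016 in naive and -451 in memory, Eif1a read 855 and 63, and Rpl39l read 616 and -11.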

How the results depend on the processing

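No paired analysis was possible because each group has 1 array per chip and the labels give no replicate numbers; no array could be left out. The count of 13 lower members and the median of -1.16 were close to the main value without scaling (12; -1.14), with median-ratio scaling (12; -1.03), with the floor halved (14) or doubled (13), and with only probe sets above the floor on both arrays (13); the count of 0 higher held under every alternative except spike-in scaling. The count became 0 with quantile normalization and with each lowess setting. The median became -0.28 (quantile), -0.15 (lowess span 0.4), -0.077 (span 0.2), -0.25 (span 0.7) and -0.17 (span 0.4 fitted without members). Using only probe sets without a class letter left 1 measured member, with a count of 0 and a value of -0.075; leaving out class f left 3, with 0 lower and a median of -0.55. With all 33 members, dim ones at the floor, the median was -0.60. The mean over probe sets of a gene gave 8 lower genes of 17, and a threshold of 3-fold gave 5. Spike-in scaling, chosen after seeing the data with the class f alternative, gave 0 lower, 16 higher and a median of 1.42, beside 45.7% higher and a median of 2.45 over all measured probe sets. On the A chip 6 of 19 probe sets without a class letter were above the floor, against 54 of 88. Single members were recomputed under the scalings other than spike-ins and under both floors. Those called lower that turned positive were, with lowess, at span 0.4 one Tpt1 probe set (0.0092), and at span 0.2 both Tpt1 probe sets (0.236 and 0.238), Rps12 (0.085), Rpl37a (0.024) and Rps24 (0.088). Rpl32-ps passed 2-fold with the floor halved (-1.08). Over all probe sets the lower and higher counts were 113 and 67, 94 and 84 with median-ratio scaling, 73 and 100 with quantile and 51 and 80 with lowess span 0.4. The causes were not tested.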
